A study of Mus musculus with 14 samples.

Results

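The genes described here are 9 transcripts commonly used to mark neutrophils: S100a8, S100a9, Csf3r, Cxcr2, Retnlg, Il1b, Il1r2, Csf3 and Ngp. They were taken by name, ignoring case, from a table of 18481 genes measured by RNA sequencing in 14 bulk mouse melanomas. The table used here has rows for 8 of the 9; Ngp, which encodes a secondary granule protein, has no row and was not analysed here. Of the 8, Csf3 reached a signal of 1 in a single tumour and was not tested, so 7 genes entered the tests. Csf3 encodes the growth factor G-CSF and is made by other cells to act on neutrophils, so it belongs to the list as a ligand rather than as a transcript of the cell itself.

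The tumours grew from SMM102 mouse melanoma cells given subcutaneously to female C57BL/6J mice, with 2 injections per mouse, and dosing began once they measured 150 to 300 mm3. Treated mice received PLX4032 (vemurafenib, an inhibitor of the mutant BRAF kinase) at 50 mg/kg into the peritoneal cavity on 5 days per week, and were killed at 4 times: n = 2 tumours each at days 3, 6 and 18, and n = 4 at day 27. There were n = 2 controls each at days 3 and 6; these are untreated by the sample labels, while the series' design gives them vehicle. The hosts keep their own immune cells. No controls of days 18 and 27 were analysed here, so treatment and time cannot be told apart at those days. The 4 tumours of day 27 are the left and right tumours of 2 mice; no column can be tied to a mouse, so all 4 entered as separate samples, which makes p-values that use them too small. The labels of the 2 day 18 tumours do not say whether both grew in the same mouse, and these tumours also entered as separate samples. If they shared a mouse, p-values that use them are too small as well. The day 18 differences could then be those of that mouse alone. The tumours of a group are numbered below only as names. The numbers pair nothing across groups.

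Neutrophils form in the bone marrow, where precursors fill primary granules (myeloperoxidase, proteinase 3) and later secondary granules (lactoferrin, cathelicidin). G-CSF, acting through its receptor Csf3r, drives their production, and the chemokine receptor Cxcr2 draws mature cells into tissue towards Cxcl1, Cxcl2 and Cxcl5. Mature cells carry large amounts of S100a8 and S100a9, whose products join into calprotectin, an alarmin that binds calcium and zinc. They also make interleukin 1 beta (Il1b) and its decoy receptor Il1r2. Several of these transcripts are shared with monocytes and macrophages, Il1b and Csf3r among them.

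In the annotation of the GRCm38 build, S100a8 lies at chr3:90668978-90670035 on the plus strand and S100a9 close by at chr3:90692632-90695721 on the minus strand. Csf3r lies at chr4:126024550-126044440, Cxcr2 at chr1:74153989-74161246, Il1r2 at chr1:40074079-40125231, Retnlg at chr16:48872621-48874496 and Csf3 at chr11:98701263-98703629, all on the plus strand. Il1b lies at chr2:129364570-129371139 on the minus strand. All are protein-coding genes. RefSeq promoter windows of 300 bases around the annotated start were found for 8 of the 9 genes (GRCm38.p6). The windows of the 4 genes whose levels set the main contrast below (S100a8 and S100a9 against Csf3r, with Il1b high alongside either) are printed 5′ to 3′ on the gene's own strand. They are chr3:90668821-90669120 (plus), chr3:90695672-90695971 (minus), chr2:129371090-129371389 (minus) and chr4:126024409-126024708 (plus), in the order S100a8, S100a9, Il1b, Csf3r. Capitals mark matches, on either strand, to a C/EBP motif (TTNCNNAA), a PU.1 core (GAGGAA) or an NF-kB motif, none of which overlap here.
S100a8 promoter: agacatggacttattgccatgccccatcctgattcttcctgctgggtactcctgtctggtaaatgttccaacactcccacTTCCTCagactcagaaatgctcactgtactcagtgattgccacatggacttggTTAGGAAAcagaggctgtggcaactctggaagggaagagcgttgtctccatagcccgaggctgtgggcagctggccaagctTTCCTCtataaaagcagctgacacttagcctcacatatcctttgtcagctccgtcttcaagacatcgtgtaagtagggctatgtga
S100a9 promoter: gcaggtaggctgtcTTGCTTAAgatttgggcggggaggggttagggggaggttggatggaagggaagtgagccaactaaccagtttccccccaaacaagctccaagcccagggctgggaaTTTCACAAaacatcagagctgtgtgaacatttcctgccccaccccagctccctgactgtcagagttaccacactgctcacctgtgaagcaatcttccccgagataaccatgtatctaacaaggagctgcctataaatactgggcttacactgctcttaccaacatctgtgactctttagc
Il1b promoter: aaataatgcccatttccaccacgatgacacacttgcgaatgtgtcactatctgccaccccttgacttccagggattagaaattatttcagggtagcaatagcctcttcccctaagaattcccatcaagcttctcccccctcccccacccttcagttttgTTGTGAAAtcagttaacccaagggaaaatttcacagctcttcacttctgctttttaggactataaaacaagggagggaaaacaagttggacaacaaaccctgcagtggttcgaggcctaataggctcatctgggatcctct
Csf3r promoter: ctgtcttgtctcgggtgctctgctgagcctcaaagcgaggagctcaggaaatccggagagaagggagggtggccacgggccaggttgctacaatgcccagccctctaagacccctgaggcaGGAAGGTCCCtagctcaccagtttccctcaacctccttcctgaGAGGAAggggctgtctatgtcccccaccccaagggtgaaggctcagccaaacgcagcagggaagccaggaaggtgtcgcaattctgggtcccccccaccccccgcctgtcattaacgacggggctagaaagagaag
The S100a8 window holds 1 C/EBP match and 2 PU.1 matches, and the S100a9 window holds 2 C/EBP matches. The Il1b window holds 1 C/EBP match, and the Csf3r window 1 PU.1 and 1 NF-kB match. Among 32544 windows of the same length, 40.7% hold the C/EBP motif, 28.1% the PU.1 core and 5.56% the NF-kB motif, so most of these matches are common. A match describes letters and not a bound site.

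Signals are the deposited values, scaled like TPM, per transcript length and library. Changes are differences of log2(signal + 1), which understate the change of low genes. Adjusted p-values come from limma with Benjamini-Hochberg adjustment over 15841 genes, those with a signal of 1 or more in at least 2 tumours, and "rose" or "fell" means an adjusted p under 0.05. Column totals ran from 879385 to 1084401 and the read depth is unknown. In control day 6 tumour 1, the gene with the highest signal (Mir6236) took 5.87% of the total. Control day 6 tumour 2 had the lowest Ptprc (CD45, on all leukocytes) signal of any tumour, 6.01. Among 7 melanocyte markers, Mlana, Tyr, Tyrp1 and Dct have no row in the table used here, and Pmel, Sox10 and Mitf summed to between 3.29 and 11.8, so the pigment-cell markers of the labelled tumour type were at low signal throughout. Ly6g, Elane and Cxcr1, defining neutrophil genes, also have no row. In bulk tumours, fewer cells of a type and less RNA per cell cannot be told apart.

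**Figure D1:**
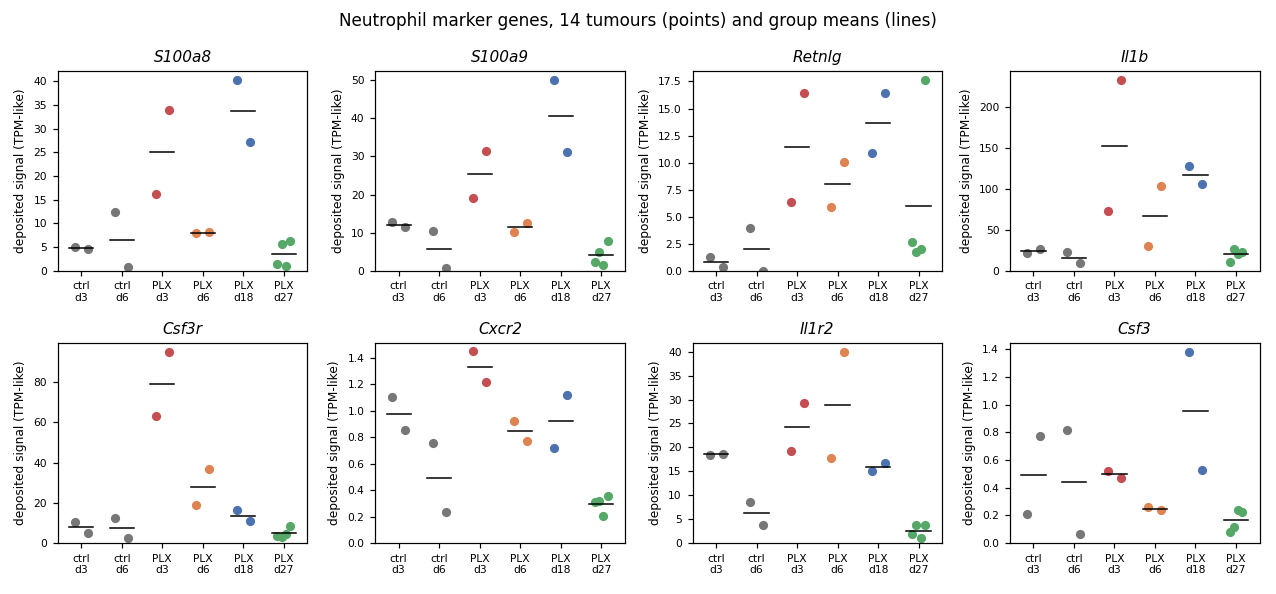
Signal (deposited, TPM-like, linear axis) of the 8 marker genes in each of 14 tumours by group, with points for tumours and lines for group means. S100a8 and S100a9 are highest in tumours of days 3 and 18 under PLX4032, Csf3r is highest at day 3, and Il1r2 is lowest at day 27.

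The alarmin transcripts S100a8 and S100a9 were high at days 3 and 18 of PLX4032 and within the control range at days 6 and 27. S100a8 signal was 5.11 and 4.63 in the day 3 controls and 12.4 and 0.705 in the day 6 controls. Under PLX4032 it was 16.3 and 34.0 at day 3, 7.88 and 8.29 at day 6, 40.3 and 27.1 at day 18, and 1.44, 5.72, 0.990 and 6.34 at day 27. The tumours of days 3 and 18 all lay above every control, while those of days 6 and 27 overlapped the controls. S100a9 was 12.8 and 11.5, then 10.4 and 0.769, in the controls of days 3 and 6. It reached 19.2 and 31.3 at day 3 and 50.0 and 31.2 at day 18, against 10.3 and 12.5 at day 6 and 2.20, 4.94, 1.4999 and 7.82 at day 27. Again the tumours of days 3 and 18 stood above all controls.

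Against the 4 controls, S100a8 rose at day 3 by 2.22 ± 0.75 (log2, SE; adjusted p = 0.0326), while the S100a9 difference of 1.74 ± 0.66 missed the threshold (adjusted p = 0.0522). At day 18 the differences were 2.69 ± 0.75 for S100a8 (adjusted p = 0.0532) and 2.40 ± 0.66 for S100a9 (adjusted p = 0.0510), both past an unadjusted but not the adjusted threshold. At day 6 they were 0.78 ± 0.75 and 0.69 ± 0.66 (both adjusted p = 0.61). The steps from day 3 to day 6 were not called, at -1.44 ± 0.87 for S100a8 (adjusted p = 0.269) and -1.05 ± 0.76 for S100a9 (adjusted p = 0.362). From day 18 to day 27, S100a8 fell by 3.11 ± 0.75 (adjusted p = 0.0278) and S100a9 fell by 3.16 ± 0.66 (adjusted p = 0.0156). The S100a8 call of day 3 was lost on leaving out either day 3 tumour, either day 3 control or control day 6 tumour 2. The fall from day 18 to 27 was lost for both genes without either day 18 tumour, and for S100a8 also without day 27 tumour 1. When the day 27 tumours were averaged in pairs, as the tumours of 1 mouse would be, both falls lost their call in each of the 3 possible pairings (adjusted p from 0.0709 to 0.107 for S100a8 and from 0.0506 to 0.0738 for S100a9). Over the 14 tumours the pattern of S100a8 was most like that of S100a9 (Pearson r = 0.958 of log2 values, from libraries that share their scaling), followed by Sdr42e1 (0.942), Osm (0.933), Htra3 (0.928) and Lbp (0.928). The likest genes to S100a9 after S100a8 were Cyp1b1, Spon1, Sod3 and Mgst1, at 0.930 to 0.925.

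Retnlg, the resistin-like gamma peptide of mouse bone marrow and neutrophils, followed a different order. Its signal was 1.26 and 0.310 in the day 3 controls and 3.97 and 0 in the day 6 controls, where a listed 0 can be a failed estimate. It was 6.36 and 16.5 at day 3, 5.90 and 10.1 at day 6, 10.9 and 16.5 at day 18, and 2.63, 1.70, 2.00 and 17.6 at day 27. All 6 treated tumours up to day 18 lay above every control, and of the day 27 tumours only the fourth did. Retnlg rose at day 3 by 2.53 ± 0.81 (adjusted p = 0.0259), a call lost without day 3 tumour 2, control day 3 tumour 2 or control day 6 tumour 2. The differences at days 6 and 18 were 2.16 ± 0.81 (adjusted p = 0.141) and 2.88 ± 0.81 (adjusted p = 0.0550). Its paralogue Retn (resistin, made by fat cells in mice) stood at 69.0 and 155 at day 18 and at 2.67 or less in the other 12 tumours, and how reads of the 2 genes were divided was not tested. The likest patterns to Retnlg were those of Trim62 (0.923), Galnt12 (0.920), Hsd11b1 (0.918), Prl2c2 (0.917) and Fam134b (0.913).

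Il1b, the cytokine precursor cut by inflammasomes, was high at both of the times at which S100a8 was high. Its signal was 22.0 and 27.2 in the day 3 controls and 22.3 and 10.05 in the day 6 controls. It was 72.6 and 233 at day 3, 30.5 and 104 at day 6, 128 and 106 at day 18, and 10.4, 26.7, 20.6 and 22.6 at day 27. Every treated tumour to day 18 exceeded every control, and all 4 of day 27 lay within the control range. Il1b rose by 2.70 ± 0.56 at day 3 (adjusted p = 0.00301) and by 2.54 ± 0.56 at day 18 (adjusted p = 0.0236), and then fell by 2.55 ± 0.56 from day 18 to 27 (adjusted p = 0.0199). At day 6 the difference was 1.51 ± 0.56 (adjusted p = 0.140). The day 3 call was lost only without day 3 tumour 2, and the day 18 call without either day 18 tumour, control day 3 tumour 2 or control day 6 tumour 2. The fall from day 18 to 27 was lost without either day 18 tumour and in each pairing of the day 27 tumours (adjusted p from 0.0756 to 0.0899). Its likest genes were the immediate early genes Btg2 (0.969) and Csrnp1 (0.956), then Emb, Ifi205 and Dram1 (0.951 to 0.943).

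The decoy receptor Il1r2, which binds interleukin 1 without signalling, was the marker that stood below the controls at day 27. Its signal was 18.4 and 18.6 in the day 3 controls and 8.55 and 3.85 in the day 6 controls. It was 19.2 and 29.3 at day 3, 17.8 and 39.9 at day 6, 15.0 and 16.6 at day 18, and 1.80, 3.73, 1.14 and 3.71 at day 27. The 4 tumours of day 27 lay below every other tumour. Il1r2 fell by 1.76 ± 0.33 at day 27 against the controls (adjusted p = 0.0125) and fell by 2.31 ± 0.41 from day 18 to day 27 (adjusted p = 0.00630). The call against controls held on leaving out each of the 14 tumours in turn, but it was lost when the day 27 tumours were averaged in pairs (adjusted p = 0.0547, 0.0859 and 0.0528 in the 3 pairings). The fall from day 18 held in the 3 pairings and was lost without day 18 tumour 2. Il1r2 also rose at day 3, by 1.10 ± 0.41 (adjusted p = 0.0460), a call lost on leaving out any of 8 of the 14 tumours. Between the control days the Il1r2 difference was -1.52 ± 0.47 (adjusted p = 0.874). Its likest genes were Trem1 (0.921), an activating receptor of neutrophils and monocytes, the scavenger receptor Msr1 (0.920), Htr7, Hdc and Cxcl5 (0.915 to 0.912).

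Csf3r, the G-CSF receptor, gave the largest difference of the 7 genes at day 3, and from day 18 its tumours overlapped the controls. Its signal was 10.4 and 5.16 in the day 3 controls and 12.4 and 2.31 in the day 6 controls. It was 63.2 and 94.9 at day 3, 18.9 and 36.9 at day 6, 16.2 and 10.8 at day 18, and 3.46, 3.19, 4.57 and 8.60 at day 27. Tumours of days 3 and 6 exceeded every control, and those of days 18 and 27 overlapped the controls. Csf3r rose at day 3 by 3.39 ± 0.54 (adjusted p = 0.000738), which held on leaving out each of the 14 tumours, and the day 6 difference was 1.88 ± 0.54 (adjusted p = 0.0641). At day 18 it was 0.93 ± 0.54 (adjusted p = 0.275). With days 18 and 27 together against days 3 and 6, Csf3r fell by 2.37 ± 0.41 (adjusted p = 0.00164) and Il1r2 fell by 1.79 ± 0.31 (adjusted p = 0.00161), with no overlap between early and late tumours for either. Both calls held on leaving out each tumour in turn. The likest patterns to Csf3r were those of the haematopoietic genes Fermt3, Tyrobp, Pirb, Psd4 and Was, at 0.992 to 0.991.

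Cxcr2 and the ligand Csf3 stayed at low signal throughout. Cxcr2 was 1.11 and 0.852 in the day 3 controls and 0.758 and 0.232 in the day 6 controls. It was 1.45 and 1.22 at day 3, 0.922 and 0.770 at day 6, 0.720 and 1.12 at day 18, and 0.312, 0.315, 0.205 and 0.354 at day 27, placing it between the 10.5th and 23.9th percentile of genes within each tumour. Both day 3 tumours lay above all controls, as did the second of day 18. Cxcr2 rose at day 3 by 0.45 ± 0.16 (adjusted p = 0.0434) and fell by 0.40 ± 0.13 from early to late (adjusted p = 0.0272); leaving out single tumours ended the first call in 10 of 14 cases and the second in 5, and each pairing of the day 27 tumours ended both. The genes most like Cxcr2 were Actn2 (0.931), Dkk3 (0.928), Ckm (0.925), Tnnc2 (0.922) and Hspb1 (0.919), of which Actn2, Ckm and Tnnc2 are skeletal muscle genes. The 12 skeletal muscle markers summed to 49.4 to 373 in controls, 958 to 1066 at day 3, 378 to 604 at day 6, 57.1 and 2059 at day 18 and 11.7 to 36.5 at day 27; their part in the Cxcr2 pattern was not tested. Csf3 was 0.213 and 0.771 in the day 3 controls and 0.815 and 0.0689 in the day 6 controls. It was 0.521 and 0.472 at day 3, 0.259 and 0.237 at day 6, 1.38 and 0.526 at day 18, and between 0.0779 and 0.241 at day 27. The highest value was that of day 18 tumour 1.

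Counted together, 6 of the 7 tested markers rose at day 3, where 24.9% of all genes rose and 20.8% fell, with a median difference of 2.22 against 0.02 over all genes. At day 6, 0 of 7 passed limma's adjusted threshold and 4 passed an unadjusted p under 0.05, where 4.49% of all genes rose and 1.43% fell; their median difference was 1.27 against 0.01. At day 18, 1 of 7 rose (Il1b), where 5.42% of genes did, and the median was 2.40 against 0.07. At day 27, 1 of 7 fell (Il1r2), where 3.09% of genes fell and 3.58% rose, and the median was -0.41 against 0.01. Late against early, 3 of 7 fell where 19.4% of genes did, and from day 18 to day 27, 4 of 7 fell where 6.86% did. From day 3 to day 6 and between the controls no marker was called by limma, with 1 and 2 past an unadjusted p under 0.05, where 18.3% and 0% of genes were called. Comparisons against controls share the same 4 control tumours.

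**Figure D2:**
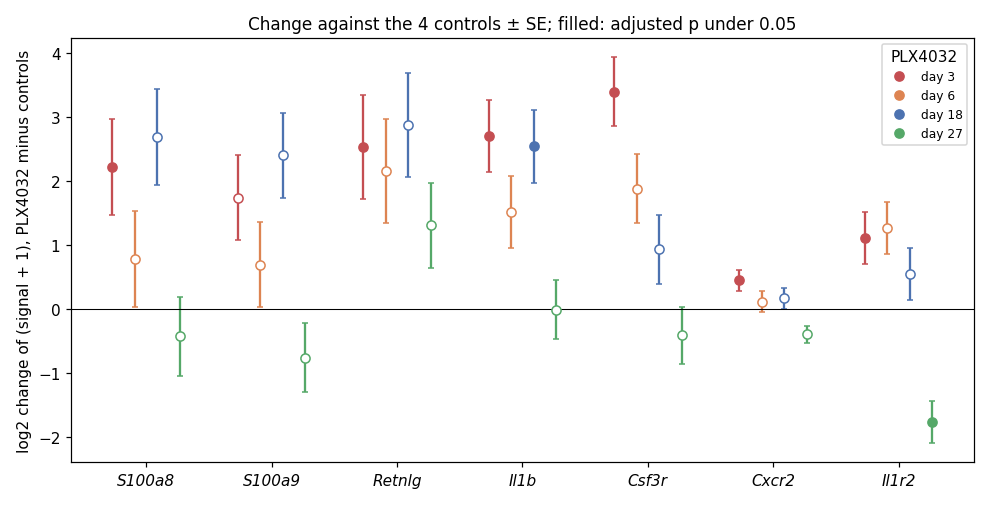
Difference of log2(signal + 1) between each PLX4032 day and the 4 controls for the 7 tested markers, with bars of 1 SE; filled points passed an adjusted p under 0.05 in limma. Csf3r declines from 3.39 at day 3 to 0.93 at day 18, while S100a8 stands at 2.22 and 2.69 at these days.

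The balance between the markers differed between day 3 and day 18. The ratio of S100a8 to Csf3r signal was 2.48 and 2.501 in the day 18 tumours, against 0.258 and 0.358 at day 3 and no more than 1.79 in any other tumour. Relative to the leukocyte gene Ptprc, S100a8 was 0.752 and 0.916 at day 18 and at most 0.499 elsewhere, while the Csf3r ratio ran from 0.220 to 0.525 over all 14 tumours. Ptprc itself was 121 and 183 at day 3, 53.6 and 29.6 at day 18 and 6.01 to 29.2 in controls; it rose at day 3 by 3.10 ± 0.56 (adjusted p = 0.00140), and its day 18 difference was 1.23 ± 0.56 (adjusted p = 0.178). The day 3 tumours combined high Csf3r with high CD45 signal, and the day 18 tumours high S100a8 per CD45 signal. These ratios are descriptions without a test.

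**Figure D3:**
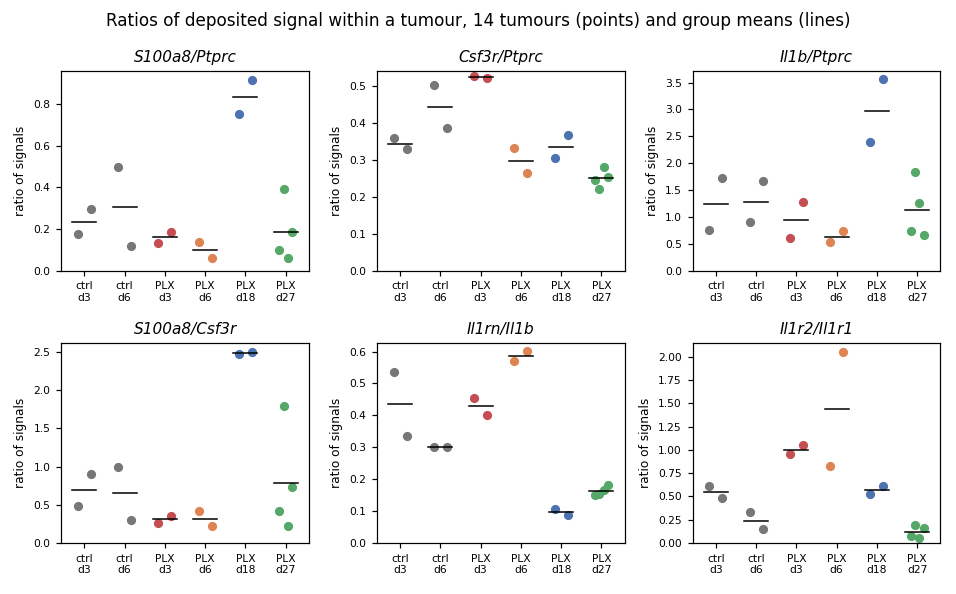
Ratios of deposited signals within each of 14 tumours (points) with group means (lines), on linear axes. S100a8 per Csf3r is 2.48 and 2.501 at day 18, and Il1rn per Il1b is lowest in the tumours of days 18 and 27.

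Granule genes were examined next. Of 16 granule and maturation genes with a row, 9 rose at day 3, where 24.9% of all genes did, and 8 at day 18, where 5.42% did, with medians of 1.33 and 1.38 against 0.02 and 0.07 over all genes. Those of day 3 with the smallest p-values were Lyz2 (lysozyme, shared with macrophages; 3.31 ± 0.54, adjusted p = 0.000815), Pglyrp1 (2.38 ± 0.39), Padi4 (2.11 ± 0.34), the enzyme that citrullinates histones, and Gfi1 (1.52 ± 0.28), a transcription factor of granulocyte precursors. Among granule proteins, Mmp8 rose by 1.07 ± 0.23 (adjusted p = 0.00382), a call lost without day 3 tumour 2, and Lcn2 by 1.53 ± 0.55 (adjusted p = 0.0423), a call lost without any of 9 of the 14 tumours. Mpo, Camp and Ltf did not pass at day 3, at 0.22 ± 0.16, 0.24 ± 0.30 and 1.04 ± 0.55. The 8 of day 18 include Mpo and Camp, which passed the filter only through the tumours of that day, so that count carries this selection.

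At day 18 some transcripts of both granule types were high. Mpo (myeloperoxidase) was 10.7 and 8.15 at day 18 and no more than 0.586 in any of the other 12 tumours. Prtn3 (proteinase 3) was 31.2 and 13.9 against at most 3.90 elsewhere, and Camp (cathelicidin) was 3.31 and 1.33 against at most 0.648. Camp is a secondary granule gene, as are Ltf (lactoferrin) and Lcn2 (lipocalin 2). Ltf was 4.73 and 21.7 and at most 3.34 elsewhere, and Lcn2 was 26.8 and 28.3 and at most 11.5 elsewhere. Wfdc21 was 123 and 77.5 against at most 6.15. For these 6 of the 16 genes, both day 18 tumours lay above every other tumour. The 6 were named as defining genes or for small p-values at day 18. The share of all genes with this trait was not counted.

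Against the controls at day 18, Mpo rose by 3.10 ± 0.16 (adjusted p = 4.43e-06), Wfdc21 by 5.56 ± 0.54 and Prtn3 by 2.59 ± 0.25 (both adjusted p = 0.000172). Lcn2 rose by 3.50 ± 0.55 (adjusted p = 0.00462), Ltf by 3.00 ± 0.55 (adjusted p = 0.00979) and Camp by 1.55 ± 0.30 (adjusted p = 0.0129). Mpo and Camp reached a signal of 1 in the day 18 tumours only. They passed the filter through the group where they were high, so their p-values here carry that selection. Both are among the 8 that rose at day 18 and the 11 that fell by day 27. Without either day 18 tumour they fell under the filter and could not be retested. Of the other 4, the Ltf call was lost without day 18 tumour 2, and those of Wfdc21, Prtn3 and Lcn2 held on leaving out each tumour. Mmp8 (0.67 ± 0.23) and Mmp9 (-0.07 ± 0.42), collagenase and gelatinase of later granules, did not pass. Nor did the cathepsin G gene Ctsg (-0.53 ± 0.43), Chil3 (2.04 ± 0.78) or Lyz2 (0.77 ± 0.54). Pglyrp1 (1.22 ± 0.39), Cebpe (0.67 ± 0.30) and Gfi1 (0.26 ± 0.28) did not pass either. From day 18 to day 27, 11 of the 16 fell, where 6.86% of all genes did, in which Mpo fell by 3.16 ± 0.16 and Wfdc21 fell by 6.28 ± 0.54. Mmp9 differed in the other direction and did not pass (1.16 ± 0.42, adjusted p = 0.102). The list count of 8 at day 18 became 4 without either day 18 tumour, with Mpo and Camp among the genes no longer tested, and the 11 became 4 likewise. The 11 became 7 without day 27 tumour 1 and 5 in each pairing of the day 27 tumours; the 9 of day 3 became 5 without day 3 tumour 2. At day 27, Ctsg (cathepsin G, also a mast cell protease) fell by 2.38 ± 0.36 against controls (adjusted p = 0.00506), a call lost in each pairing. Of 5 tested eosinophil, basophil and mast cell markers, 3 also fell at day 27, where 3.09% of all genes did, with a median of -2.42. The 7 with a row summed to 7.56 to 32.1 at day 27, against 64.8 to 394 in controls, 315 and 511 at day 3, 121 and 169 at day 6 and 91.7 and 111 at day 18. Siglecf, Epx and Mcpt8, which define eosinophils and basophils, have no row, and the part of these cells in the Ctsg values was not tested.

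Markers of fat moved with the day 18 tumours. The 11 adipocyte markers with a row, a list added after its values were seen, summed to 2743 and 2797 at day 18, against 24.6 to 74.8 in controls, 97.5 to 149 at day 3 and 20.3 to 31.0 at day 27. All 10 tested rose at day 18, where 5.42% of all genes did. Lcn2, and G0s2 (an inhibitor of fat breakdown that is also high in neutrophils; 50.9 and 28.8 at day 18, at most 8.47 elsewhere), are made by fat cells as well, and the part of fat in the day 18 values was not tested. The 8 erythroid and platelet markers summed to 419 and 1271 at day 18 and 120 to 709 in controls. Of these, 0 of 8 passed limma's test at day 18, where 5.42% of all genes rose. The 3 keratinocyte markers with a row, none of them a keratin of the basal layer, summed to 6.79 and 13.2 at day 18 and 8.10 to 24.7 in controls.

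**Figure D4:**
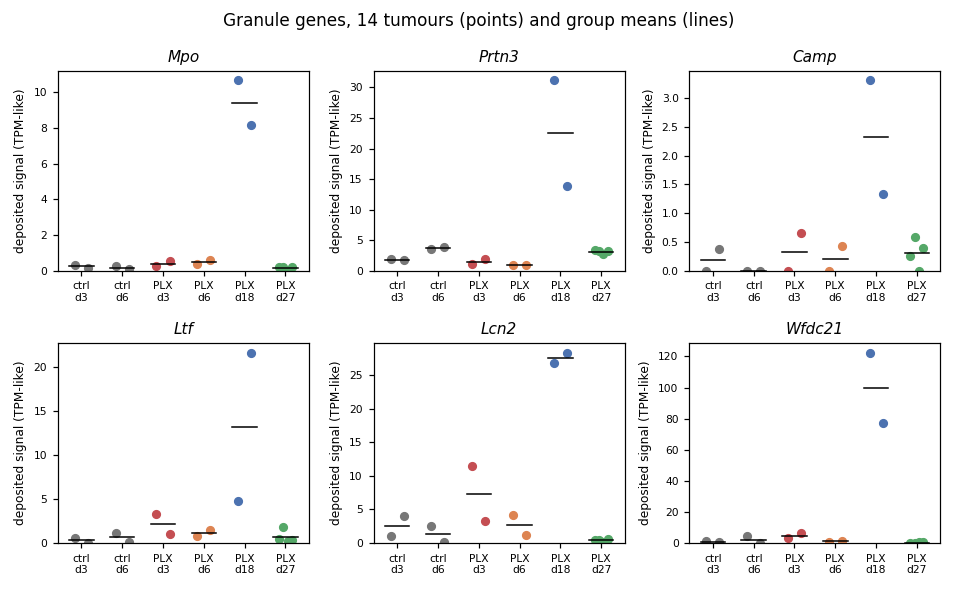
Signal (deposited, TPM-like, linear axis) of 6 of the 16 granule and maturation genes in each of 14 tumours (points) with group means (lines). Both day 18 tumours lie above all others in each panel, for example Mpo at 10.7 and 8.15 against at most 0.586.

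Surface and activation genes of neutrophils, most of them shared with monocytes, were high early. Of 25 tested, 21 rose at day 3 (median 2.58; 24.9% of all genes), 10 at day 6 (median 1.89; 4.49% of all genes) and 3 at day 18 (median 1.19; 5.42% of all genes), while the median over all genes was at most 0.07. At day 3 they were led by Tlr2 (2.97 ± 0.35), Clec4e (3.32 ± 0.47), Selplg (3.09 ± 0.49), the ligand of P-selectin, and Acod1 (4.01 ± 0.64), which makes itaconate. Itgam (CD11b) rose by 2.81 ± 0.52 at day 3 and 2.34 ± 0.52 at day 6, and its day 18 difference was 1.84 ± 0.52 (adjusted p = 0.0555). The day 6 call of Itgam was lost without any of 8 of the 14 tumours. The 21 became 13 without day 3 tumour 2. The 10 became 0 without any of 7 single tumours (control day 3 tumour 2, control day 6 tumour 2, PLX4032 day 6 tumour 2 or any tumour of day 27) or in any pairing of the day 27 tumours, and 16 without control day 6 tumour 1. The 3 of day 18 became 1 without control day 3 tumour 2 or either day 18 tumour and in 1 of the 3 pairings, 5 without either day 6 PLX4032 tumour and 8 without control day 6 tumour 1. At day 27, 2 of the 25 rose and 2 fell against controls, where 3.58% of all genes rose and 3.09% fell. Siglece rose by 1.4996 ± 0.397 (adjusted p = 0.0490) and G0s2 by 1.13 ± 0.27 (adjusted p = 0.0343). Hdc (histidine decarboxylase) fell by 1.98 ± 0.37 and Ifitm1 fell by 1.94 ± 0.28, both falls lost in each pairing of the day 27 tumours. Mast cells and basophils also make Hdc; the markers of those cells given above were lowest at day 27, and their part in the Hdc values was not tested.

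Monocyte and macrophage markers were also high at day 3. Of 18 tested, 16 rose at that day (median 2.62) and 1 fell, where 24.9% of all genes rose and 20.8% fell. At day 6, 3 rose (median 1.39) where 4.49% of all genes did, and at day 18, 4 rose (median 1.26) where 5.42% did. The 3 became 0 without the same 7 single tumours as above or in any pairing, 8 without control day 3 tumour 1 and 11 without control day 6 tumour 1. The 4 became 0 without either day 18 tumour, 1 without control day 3 tumour 2 or in any pairing, 2 without control day 6 tumour 2 or day 27 tumour 2, and 12 without control day 6 tumour 1. Those that rose at day 3 included Cd68 (2.62 ± 0.36), Folr2 (3.53 ± 0.51), Plac8 (4.22 ± 0.66) and the chemokine receptor Ccr2 (3.32 ± 0.53). Their summed signal was 7714 and 9853 at day 3, 4057 and 5875 at day 6 and 3118 and 4761 at day 18, against 2122 to 3434 in controls and 1830 to 2461 at day 27. The part of monocytes and macrophages in the Csf3r and Il1b values was not tested.

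Chemokines and growth factors for neutrophils rose less uniformly. Of 10 tested, 4 rose at day 3, where 24.9% of all genes did (median 0.94 against 0.02), namely Tnf (2.52 ± 0.31), Ccl4 (3.29 ± 0.57), Ccl3 (2.83 ± 0.54) and Cxcl2 (1.65 ± 0.51, adjusted p = 0.0233). Cxcl2, a Cxcr2 ligand, was 2.26 and 13.4 at day 3 and at most 1.92 elsewhere, and its call was lost without the second day 3 tumour, control day 3 tumour 2 or control day 6 tumour 2. The count of 4 became 7 without day 3 tumour 1. Cxcl1, another Cxcr2 ligand, was 2.33 and 20.1 at day 3 and did not pass (1.13 ± 0.63, adjusted p = 0.163). Cxcl3 did not reach 1 in at least 2 tumours and was not tested. The third tested ligand, Cxcl5, was 6.25 and 5.27, then 2.55 and 0.479, in the controls of days 3 and 6, and 0.245, 0.139, 0.260 and 0.234 at day 27. All 4 tumours of day 27 were below the lowest control, and Cxcl5 fell by 1.69 ± 0.31 (adjusted p = 0.0121). That call held on leaving out each tumour and was lost in each pairing of the day 27 tumours (adjusted p from 0.102 to 0.114). Cxcl12 went the other way at day 27 and rose by 1.53 ± 0.32 (adjusted p = 0.0180). Of the 10 tested, 1 rose and 1 fell at that day, where 3.58% of all genes rose and 3.09% fell. At day 6, 3 rose where 4.49% of all genes did, a count that became 0 without the 7 single tumours given for the surface genes or in any pairing, and 5 without control day 3 tumour 1. Il6, which with G-CSF promotes granulocyte production, was 6.48 and 5.52 at day 18 and at most 2.37 elsewhere, and rose at day 18 by 1.89 ± 0.19 (adjusted p = 0.000250). Ccl4 and Cxcl12 made up the count of 3 that rose at day 18 (5.42% of all genes), which became 1 without control day 3 tumour 2, control day 6 tumour 2 or day 18 tumour 1 and in 1 of the 3 pairings.

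Within the interleukin 1 system, the antagonist was low relative to Il1b in late tumours. Of 16 genes tested, 13 rose and 1 fell at day 3, where 24.9% of all genes rose and 20.8% fell. At day 6, 5 rose and 1 fell, where 4.49% and 1.43% did. At day 18, 1 rose, a share near the 5.42% of all genes. Medians were 1.24, 0.75 and 0.34, against 0.02, 0.01 and 0.07 over all genes. The 5 of day 6 became 0 without control day 3 tumour 2, control day 6 tumour 2, PLX4032 day 6 tumour 2 or any tumour of day 27, and in each pairing of the day 27 tumours. They became 1 without either day 3 PLX4032 tumour, 9 without control day 6 tumour 1 and 8 without PLX4032 day 6 tumour 1. At day 3 Il1rn, the receptor antagonist, rose by 2.83 ± 0.53, Il1a by 1.17 ± 0.17, the inflammasome adaptor Pycard by 2.82 ± 0.44 and the pore former Gsdmd by 1.20 ± 0.18, while Il1rap, the shared signalling chain, fell by 1.59 ± 0.18. Il1rn was 32.9 and 93.5 at day 3, 17.4 and 62.3 at day 6, and 13.5 and 9.29 at day 18, against 3.02 to 11.8 in controls. Its day 18 difference was 0.62 ± 0.53 (adjusted p = 0.462), beside the 2.54 of Il1b at that day. The ratio of Il1rn to Il1b signal was 0.106 and 0.0880 at day 18 and 0.151 to 0.181 at day 27, against 0.300 to 0.537 in controls and 0.402 to 0.601 at days 3 and 6, so late tumours did not overlap the others. The gene that rose at day 18 was Il33, an alarmin of stromal and endothelial cells, at 72.6 and 56.3 against 8.82 to 16.1 in controls (2.29 ± 0.26, adjusted p = 0.000506); it was also higher at day 27 (1.41 ± 0.21, adjusted p = 0.00499), a call lost in 1 of the 3 pairings.

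The signalling receptor Il1r1 moved little beside its decoy. Il1r1 was 25.5 to 38.4 in controls and 19.0 to 23.7 at day 27, and it fell by 0.44 ± 0.12 (adjusted p = 0.0490) in a call lost without any of 11 of the 14 tumours and in each pairing. The Il1r1 difference from controls was -0.51 ± 0.14 at day 6, which did not pass limma's threshold (adjusted p = 0.0570), and -0.08 ± 0.14 at day 18. The ratio of Il1r2 to Il1r1 was 0.822 to 2.05 at days 3 and 6, 0.521 and 0.607 at day 18, 0.146 to 0.610 in controls and 0.0529 to 0.196 at day 27. Lower Il1r1 also raises this ratio.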

How the data were processed

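Trizol RNA of 14 whole frozen tumours was made into TruSeq libraries (labels' protocols). The deposited values are a signal for each gene symbol, called TPM by the authors; column totals differ and 5 of 14 exceed the total that TPM gives, so the signal is TPM-like, with a rescaling not given in the sources used here. Kallisto, sleuth and mm10 are named in the submitters' processing notes, with no versions. Of 18481 symbols, 17810 (96.4%) matched a mouse gene name table; coordinates are from GENCODE M21.

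Column names give the group but not the animal, so p-values reflect only the spread among these tumours, which may be partly technical. Within-group correlations ran from 0.971 to 0.992. limma 3.58.1 (R 4.3.3) was fitted to log2(signal + 1) with 6 group means and a variance trend, 2-sided, with Benjamini-Hochberg adjustment over 15841 genes. All groups share 1 estimate of the spread, to which the day 27 tumours contribute. The steps were tested on simulated data.

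The markers and gene lists were chosen with earlier results of these data known; the adipocyte, skeletal muscle and melanocyte lists were added after values were seen. The text names all listed markers, up to 4 genes per list and comparison with the smallest p, fixed defining genes, and for each tested marker the 5 genes of most similar pattern. Alternatives were other pseudocounts, filters, scalings, sample sets and controls, a fit without the variance trend, each tumour left out, and day 27 tumours averaged in pairs.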

Additional observations from a re-analysis of the deposited data

Results flagged for a closer look

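Retnlg in the fourth day 27 tumour, at a signal of 17.6, lay apart from the other 3, which were between 1.70 and 2.63; its gap to the nearest was 0.942 of the range, above Dixon's critical value for 4 samples. Chance marks about 1 in 20 groups in this way, and 8 marker genes were examined. That tumour also had the highest Ptprc of its group, 34.1 against 14.1 to 16.3, and the highest Csf3r, 8.60.

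The effects against the same controls differed between late and early PLX4032 tumours for Csf3r (log2 difference -2.37), Cxcr2 (-0.40) and Il1r2 (-1.79), each tested as a contrast in limma. They differed between day 27 and day 18 for S100a8 (-3.11), S100a9 (-3.16), Il1b (-2.55) and Il1r2 (-2.31), tested the same way. The adipocyte markers also fell between those days, and their part in these differences was not tested.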

How the results depend on the processing

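The count of markers that rose at day 3 was 6, and it was 3 with a pseudocount of 0.1, 2 with the compared groups alone and 3 with same-day controls. At day 18 the count was 1, and it was 3 with a pseudocount of 5, 4 with quantile normalisation, and 4, 2 and 3 with the day 27 tumours averaged in the 3 possible pairings. Those pairings gave 0, 0 and 0 falls at day 27 (1 as reported) and 1, 1 and 1 from day 18 to 27 (4 as reported). Late against early, 3 markers fell, 1 with day 18 alone as late and 6 with day 27 alone, both chosen after seeing the data. From day 3 to 6, 0 fell by limma and 1 did with a pseudocount of 5.

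Leaving out each tumour in turn gave 1 to 7 rises at day 3, 0 to 3 at day 6 and 0 to 4 at day 18, with 1 to 2 falls at day 27, 2 to 3 late against early, 0 to 1 from day 3 to 6 and 0 to 5 from day 18 to 27. At day 3 the count was 1 without day 3 tumour 2, 2 without control day 3 tumour 2 or control day 6 tumour 2, and 3 without day 3 tumour 1 or control day 3 tumour 1. At day 6 it was 3 without control day 6 tumour 1 and 2 without PLX4032 day 6 tumour 1. At day 18 it was 0 without either day 18 tumour, control day 3 tumour 2 or control day 6 tumour 2. It was 3 without day 27 tumour 3 or 4, and 4 when control day 6 tumour 1 was dropped. At day 27 it was 2 without control day 6 tumour 2, and from day 18 to 27 it was 1 and 0 without day 18 tumours 1 and 2. The 1 fall from day 3 to 6 appeared without either day 6 control.

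The sign turned in few cases and in no called one. With quantile normalisation, which moved the median of all genes at day 3 from 0.02 to -0.15, it did so for Mpo at day 3 (-0.024) and Cxcr2 at days 6 (-0.10) and 18 (-0.04); with same-day controls for Cxcl5 at day 3 (-0.022). With day 18 alone as late, S100a8 (1.19), S100a9 (1.19), Retnlg (0.53) and Il1b (0.43) were higher than early. Between the control days, Retnlg was -0.22 with a pseudocount of 0.1 and S100a8 0.012 with a pseudocount of 5. Leaving out 1 tumour turned the sign of Camp (-0.12 to 0.60), Cxcl1 (-0.20 to 2.46) and Mmp9 (-0.10 to 0.79) at day 3, Cxcr2 at day 6 (-0.015 to 0.24), Mmp9 at day 18 (-0.51 to 0.38), and at day 27 S100a8 (-1.17 to 0.31), Csf3r (-0.92 to 0.093), Il1b (-0.28 to 0.26) and Ptprc (-0.31 to 0.63). It also did so for Retnlg late against early (-0.58 to 0.056), for Retnlg (-0.9985 to 0.25) and Il1r2 (-0.39 to 0.73) from day 3 to 6, and between the control days for S100a8 (-1.78 to 1.19), Csf3r (-1.34 to 0.68) and Retnlg (-0.78 to 1.53).

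For the 15 called marker results, 305 of 385 alternative values kept the call and direction, 80 lost the call and 0 turned. Each lone tumour of a reduced group was assumed to vary like the others. Unknown read depth limits the low genes Cxcr2, Csf3, Camp and Mpo. No paired analysis was possible because the columns carry no animal. A day 6 control and a day 3 PLX4032 tumour share 1 number in the labels, which do not say whether it is 1 animal.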
